A study of Mus musculus with 2 samples.

Results

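The mouse genes named Zfp930 to Zfp964 are zinc finger genes of the numbered Zfp series. They were taken from the array by name: every non-control probe whose gene name was Zfp followed by exactly 3 digits, the first of them 9. This gave 32 genes with 59 probes, out of 37074 gene names on the array, and the numbers found ran from Zfp930 to Zfp964. The members were selected on their names, and the group itself was chosen by earlier differences between these arrays, so its differences are given as a description and support nothing. Total RNA of skin tumours from male mice was labelled with Cy3, starting from 0.2 µg, and hybridised to single-colour Agilent arrays, 1 array for each of the 2 genotypes. The wild-type sample came from P2ry6+/+ mice and the knockout sample from P2ry6-/- mice, which lack the UDP receptor P2Y6, and the series asks which genes differ between the genotypes in tumours induced by ultraviolet B light (UVB). Mice of both genotypes were 2 months old at the start and received UVB on the shaved back at 180 mJ/cm2 for 10 weeks, rising by 10 mJ/cm2 a week to 300 mJ/cm2 at week 22 and held there to week 40. The sources used here do not give the number of tumours or animals behind each RNA.

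Zfp genes of this kind mostly encode C2H2 zinc finger proteins, in which short fingers held by a zinc ion follow one another and read DNA letters. Many also carry a KRAB domain, which recruits the corepressor Trim28 and, through it, the histone methyltransferase Setdb1, and so silences transposable elements and nearby genes. The genes arose by repeated duplication and lie in clusters on several chromosomes, and neighbouring copies often keep long stretches of identical sequence. Zfp932, for example, is known to bind and repress endogenous retroviral elements.

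A duplicated gene family raises the question of what each probe can tell apart, so the probe sequences are given before the values. Probes are 60 bases long, and their coordinates are those of the array files on mouse build mm9. Whether a probe lies in an exon or a UTR of that build was not looked up here. The 7 probes shown whole are those that hold the letters GGNGANAANCC in the sense direction, a coding pattern of the linker that joins one zinc finger to the next; the capitals mark it.
Zfp931 (chr2:177802400-177802459, minus strand): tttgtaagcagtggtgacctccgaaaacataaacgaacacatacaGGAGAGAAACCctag
Zfp951 (chr5:105244264-105244323, minus strand): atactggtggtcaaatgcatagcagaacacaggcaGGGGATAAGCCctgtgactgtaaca
Zfp932 (chr5:110437920-110437979, plus strand): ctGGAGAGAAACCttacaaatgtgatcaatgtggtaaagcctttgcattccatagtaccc
Zfp936 (chr7:50445732-50445791, plus strand): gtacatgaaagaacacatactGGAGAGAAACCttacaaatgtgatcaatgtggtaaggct
Zfp930 (chr8:71752264-71752323, plus strand): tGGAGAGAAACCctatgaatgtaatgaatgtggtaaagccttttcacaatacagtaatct
Zfp935 (chr13:62555554-62555613, minus strand): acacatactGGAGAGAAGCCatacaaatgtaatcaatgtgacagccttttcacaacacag
Zfp943 (chr17:22129714-22129773, plus strand): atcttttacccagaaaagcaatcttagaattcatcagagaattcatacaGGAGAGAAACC

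The pattern was in 7 of 59 probes of these genes (11.9%), in 14 of 574 probes of the other numbered Zfp genes (2.44%) and in 90 of all 56605 probes (0.159%). Read on the opposite strand it was in 0 of the 59 and in 35 of all probes (0.0618%). A match describes the probe and not the gene: the other probes lack these letters in the window they cover. Of the 50 probes measured on both arrays, the 6 with the pattern had a median log2 difference of 0.40 and the 44 without it 0.41.

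Sequence shared between genes was common in these probes. A run of at least 20 identical bases with a probe of another gene was present in 11 probes of 9 of the 32 genes. The Zfp932 and Zfp936 probes printed above have 37 bases in common, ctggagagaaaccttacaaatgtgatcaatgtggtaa, although their genes lie on chromosomes 5 and 7. The Zfp932 probe shares a run with probes of 16 other genes and the Zfp936 probe with probes of 12. For Zfp930 the number was 9, for Zfp931 it was 4, and for Zfp943 and Zfp946 it was 3 each. Zfp937 and Zfp950, on chromosomes 2 and 19, share the 20 bases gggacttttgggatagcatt. Signal at such a probe can come from more than one transcript, and how far it does was not measured. The 11 sharing probes, all measured, had a median difference of 0.45 (0.03 to 1.46), and the 39 measured probes without a shared run had 0.39 (-1.76 to 2.79).

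All differences here are log2 values, knockout-labelled minus wild-type-labelled, after each array was set to its own 75th percentile; 1 unit is a 2-fold difference and "higher" means higher on the knockout-labelled array. A probe counts as measured where the scanner software marks it well above background on both arrays, and a gene is the mean of its measured probes. Each genotype has 1 array, which leaves no biological replicate and allows no test, so each difference compares these RNA samples and not the genotypes. Both arrays lay on 1 slide and were read in 1 scan. The scanner software marked 57.8% and 57.9% of their non-control spots as well above background and 0 as saturated. The number of arrays limits the precision; what can be given is technical. The difference between arrays had a pooled SD of 0.12 between spots of the same probe over 293 probes spotted repeatedly, and of 0.25 over the 5 of these with signals under 100. Between different probes of 1 gene it had a pooled SD of 0.38 over 6772 genes, and of 0.35 over the 13 zinc finger genes described here that have 2 or more measured probes. Each probe of these genes was spotted once.

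The deleted gene was read first, as a check of the labels. P2ry6 read 364 (wild-type-labelled) and 835 (knockout-labelled) at 1 probe, and 137 and 318 at another. It was therefore higher on the array labelled knockout, by 1.29 (2.44-fold), which goes against that label. The sources used here do not give the extent of the deletion, so these probes may lie outside it. Every direction below is stated for the arrays as labelled. The labelled tissue is skin tumour, and keratinocyte markers were detected on both arrays: Krt14 had a log2 level of 9.54 and 9.55 and Krt5 of 7.38 and 9.04, relative to the 75th percentile.

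Of the 32 genes, 29 were measured on both arrays (90.6%), against 85.2% of the other numbered Zfp genes and 53.3% of all gene names. Zfp938 (chromosome 10), Zfp963 and Zfp964 (both chromosome 8) have 1 probe each, and none of these was well above background on either array. Among the 29, 5 genes were at least 2-fold higher on the knockout-labelled array (17.2%), where 4.80% of all measured genes were. At least 2-fold lower were 2 genes (6.9%), where 5.04% of all measured genes were. Either way 9.84% of all measured genes were past 2-fold. The other 22 genes differed by less. The genes nearest the 2-fold line were Zfp948 at -1.10 and Zfp945 at 1.13 on the outer side, and Zfp939 at 0.83 on the inner side.

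Most of the group lay above 0. Its median difference was 0.32 (quartiles 0.12 and 0.59), and 24 of the 29 genes were above 0, where 45.1% of all measured genes were. The other numbered Zfp genes had a median of 0.29, with 194 of 260 above 0, 21 past 2-fold upward and 4 past 2-fold downward, and all 19754 measured genes had a median of -0.06. These signs depend on the scale. With 8 spike-in control probes as the scale every difference is 0.52 lower, the median of all genes becomes -0.58, that of these genes -0.20 and that of the other numbered Zfp genes -0.23, and 8 of the 29 genes lie above 0 (Zfp949, Zfp951, Zfp946, Zfp931, Zfp945, Zfp939, Zfp934 and Zfp937). On that scale 2 of these genes are at least 2-fold higher and 4 lower, and among all genes 268 (1.36%) and 3721 (18.8%). Any value between 0 and 0.52 in the text below therefore changes sign there. The spike-in scale moves every gene by the same amount. The distance of the group above the median of all genes is therefore the same on either scale, and the change of scale is no check of it.

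**Figure D1:**
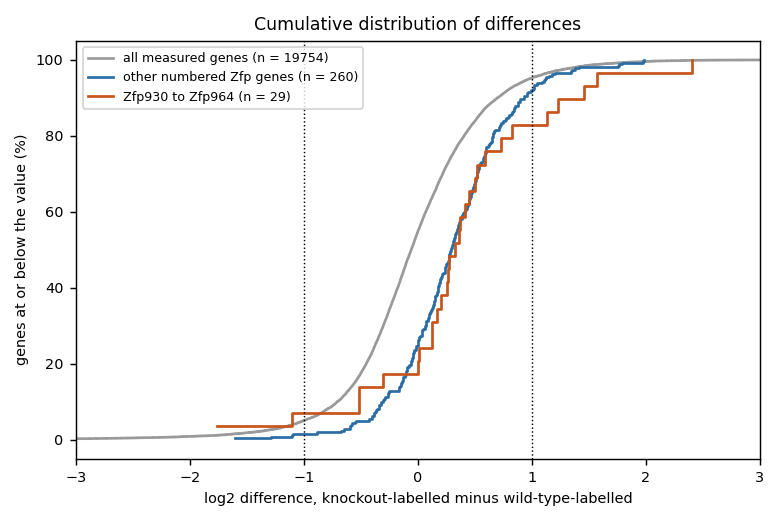
Cumulative share of genes (vertical axis, percent) at or below each log2 difference, knockout-labelled minus wild-type-labelled (horizontal axis), for all 19754 measured genes, the 260 other numbered Zfp genes and the 29 measured Zfp930 to Zfp964 genes; dotted lines mark 2-fold. The zinc finger curves lie to the right of the curve of all genes, with medians of 0.29 and 0.32 against -0.06; on the spike-in scale these become -0.23 and -0.20 against -0.58.

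In a tumour RNA sample, fewer cells of a type and less RNA per cell cannot be told apart. Marker genes of several cell types differed between these arrays. Summed over each list, with the array's 75th percentile as 1, the 6 sebaceous gland markers went from 162 (wild-type-labelled) to 6.41 (knockout-labelled), with 6 of 6 at least 2-fold lower. The 4 mast cell markers went from 9.28 to 1.69 (4 of 4 lower) and the 6 suprabasal keratinocyte markers from 970 to 414 (3 of 5 measured lower, Flg not being named on the array). The 4 melanocyte markers went from 2.88 to 0.549, with 3 of 3 measured lower and Tyr detected on the wild-type-labelled array alone. In the other lists a few genes carried the sum. The 6 basal keratinocyte markers went from 1000 to 1370 through Krt5 (1.66, the only one past 2-fold). Of the 6, 4 were above 0, among them Trp63 at 0.48, while Itga6 stood at -0.16 and Col17a1 at -0.41. The 6 macrophage markers went from 5.64 to 9.38, with Cx3cr1 (2.78) and Fcgr1 (1.71) at least 2-fold higher and Mrc1 (-1.07) lower. The 4 neutrophil markers went from 724 to 499 through S100a8 (-0.90) and S100a9 (-0.39), while Retnlg was at least 2-fold higher and Cxcr2 stood at 0.11. On the wild-type-labelled array S100a8 and S100a9 had log2 levels of 7.87 and 8.93, and Retnlg and Cxcr2 of -2.02 and -0.24. That sum therefore describes S100a8 and S100a9 and does not show a fall in neutrophils. The 5 skeletal muscle markers went from 0.344 to 1.26 through Acta1 (3.84), with Myh1 at -0.26 and Tnnt3 at 0.36. Myh4 was detected on the wild-type-labelled array alone, where the least difference this allows was -0.23, and Ckm on neither. The 4 adipocyte markers went from 2.15 to 0.479 through Cidec (-3.34), with Lep at 0.02 and Adipoq and Plin1 above background on neither array. T cell markers went from 2.91 to 2.35 (1 of 5 measured lower, Cd2). Endothelial markers went from 5.71 to 7.93 and fibroblast markers were at 74.1 on both, with none of either list past 2-fold. Their part in the zinc finger differences was not tested.

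The genes are taken below in chromosome order. Signals are given in array units for most probes, not for all. The measured probes of the genes past 2-fold also have the scanner software's own error estimate (±). That estimate covers the spot and includes a set multiplicative error of 0.1, so it is not a replicate error.

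**Figure D2:**
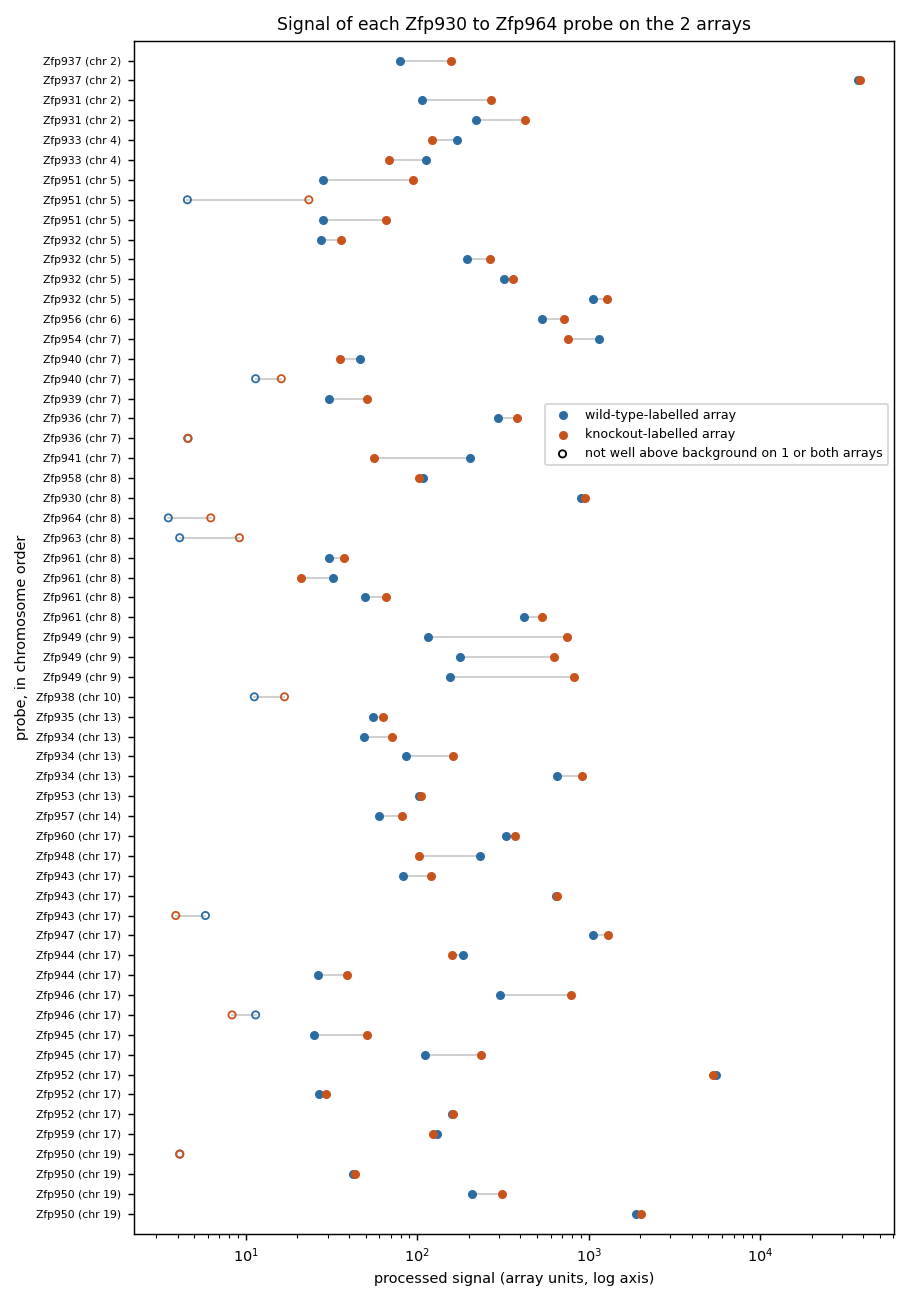
Processed signal of each of the 59 probes (horizontal axis, array units, log scale) on the wild-type-labelled (blue) and the knockout-labelled array (orange), in chromosome order; open circles are probes not well above background on 1 or both arrays. The 3 Zfp949 probes stand far to the right on the knockout-labelled array, at 631 to 825 against 115 to 177.

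On chromosome 2, Zfp931 was higher on the knockout-labelled array at both of its probes. One read 107 ± 11.7 (wild-type-labelled) and 271 ± 27.5 (knockout-labelled), and the finger probe printed above read 220 ± 22.3 and 423 ± 42.5. Neither pair of spot values overlaps within these errors. The gene's difference was 1.23 ± 0.28 (SD, 2 probes), or 2.34-fold; it was 0.89 with normexp background correction and 0.70 on the spike-in scale, both under 2-fold. The finger probe is the one that shares runs with other genes, and without it the difference was 1.42. Within 500 kb of Zfp931, 10 other features were measured, with a median of 0.76. Of them 3 (30%) were at least 2-fold higher, where 4.80% of all measured genes were. They were C330013J21Rik at 1.45, Etohi1 at 1.30 and Gm14326 at 1.03. The finger probe of Zfp931 shares a run with a probe of Gm14326. Zfp937, on the same chromosome, gave unlike answers at its probes. One, with the first 30 bases aagccctacgaatgtaagcagtgtggtaaa (chr2:150065180-150065239, plus strand), read 79.8 and 157, a difference of 1.06. The other, at chr2:150068380-150068439, read 37288 and 38181, a difference of 0.12. The mean, 0.59 ± 0.66, describes neither probe; both share a run with another gene's probe, the first with Zfp442 over 31 bases and the second with Srrm4os over 26.

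Zfp933 on chromosome 4 was among the few genes below 0. Its probes read 171 and 122, and 113 and 68.4, so both were lower on the knockout-labelled array, with a mean of -0.52 ± 0.18 (2 probes).

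On chromosome 5, Zfp951 was higher on the knockout-labelled array. Its probes read 28.1 ± 5.51 and 94.8 ± 10.6, and 28.1 ± 4.95 and 65.4 ± 7.66, while its finger probe read 4.56 on the wild-type-labelled array, not well above background, and 23.3 on the knockout-labelled array. The 2 measured probes were both higher there and gave 1.57 ± 0.38, or 2.97-fold. The finger probe passed the filter on the knockout-labelled array alone, so it is not counted with them. The signals on the wild-type-labelled array were near background, and with normexp background correction the difference was 0.69. The 11 other features measured within 500 kb had a median of 0.04. Zfp932, the retroviral repressor, had 4 measured probes, at 27.6 and 36.0, 194 and 267, 319 and 362, and 1062 and 1280. All 4 lay slightly above 0, between 0.27 and 0.55, with a mean of 0.41 ± 0.12, and it stood at -0.12 on the spike-in scale.

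Chromosome 6 holds Zfp956, with 1 probe at 534 and 713 and a difference of 0.50. Chromosome 7 holds 5 of the genes, spread over the chromosome. Zfp941 was the gene with the most negative difference. Its single probe, whose first 30 bases are ctgattagtcatttctcctgtcctgtggca (chr7:147995675-147995734, minus strand), read 202 ± 20.6 (wild-type-labelled) and 56.2 ± 6.66 (knockout-labelled). The signal was lower on the knockout-labelled array by far more than these errors, with a difference of -1.76, or 3.39-fold lower. It stayed between -2.29 and -1.11 under the 10 alternatives run. The 25 other features measured within 500 kb had a median of -0.07. Of them 1 was at least 2-fold higher and 1 lower, where 4.80% and 5.04% of all measured genes were. Zfp954 also lay below 0, at 1148 and 757 (-0.52), as did Zfp940, at 46.2 and 35.3 (-0.30), whose other probe was not well above background on either array. Zfp939 read 30.5 and 51.1, a difference of 0.83 at low signal, and 0.32 with normexp background correction. Zfp936 had its finger probe at 295 and 380, a difference of 0.45. Its other probe starts at the very next base, chr7:50445792-50445851, has no shared run, and read 4.60 and 4.58, not well above background on either array. Only the probe with sequence in common with 12 other genes gave a signal.

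Chromosome 8 holds 5 genes. Zfp930, Zfp964 and Zfp963 lie within 513 kb, and Zfp930 alone was measured, at 901 and 951 with a difference of 0.16. The 8 other features measured in that stretch had a median of 0.54. Of them 2 (25%) were at least 2-fold higher, where 4.80% of all measured genes were. Zfp958 read 108 and 102, a difference of 0.01 after scaling. Zfp961 had 4 measured probes on both sides of 0: 3 between 0.39 and 0.50 and 1, at signals of 32.1 and 21.0, of -0.53. Their mean was 0.20 ± 0.49.

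Zfp949 on chromosome 9 had the greatest difference of the group. Its 3 probes, spread over chr9:88449258-88465742 on the plus strand, have no run in common with another gene's probe, and their first 30 bases are given to show that they are separate sequences.
Zfp949 at 88449258: gaatatcctctcactctcatgattatacga
Zfp949 at 88462049: agaatctcaacgacgctcagaagatgctgt
Zfp949 at 88465683: agacctttaagccttagaatgcatcaagaa
On the wild-type-labelled array they read 115 ± 12.1, 177 ± 18.3 and 155 ± 16.1, and on the knockout-labelled array 749 ± 75, 631 ± 63.2 and 825 ± 82.6. Each probe read higher on the knockout-labelled array by more than these errors, and the differences were 2.79, 1.92 and 2.50. The gene's difference was 2.40 ± 0.44 (SD, 3 probes), or 5.29-fold, and it lay between 1.88 and 2.50 under the 10 alternatives. This exceeds the spread between probes and between spots; the spread between animals was not measured. Within 500 kb, 17 other features were measured, with a median of 0.00. The single one of them at least 2-fold higher was a long intergenic RNA probe on the same strand inside the span of Zfp949, at 2.58, while the probe on the opposite strand there was at 0.80. Snhg5, Snx14 and Syncrip nearby were at 0.00, 0.00 and 0.35.

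Chromosome 13 holds 3 genes. Zfp934 had 3 measured probes, at 48.6 and 71.3, 86.5 and 161, and 650 and 918, all of them higher on the knockout-labelled one, with a mean of 0.73 ± 0.21. Zfp935, within the same 102 kb, read 55.5 and 63.4 (0.28), and Zfp953 read 102 and 105 (0.12). On chromosome 14, Zfp957 read 60.2 and 81.2, a difference of 0.52.

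**Figure D3:**
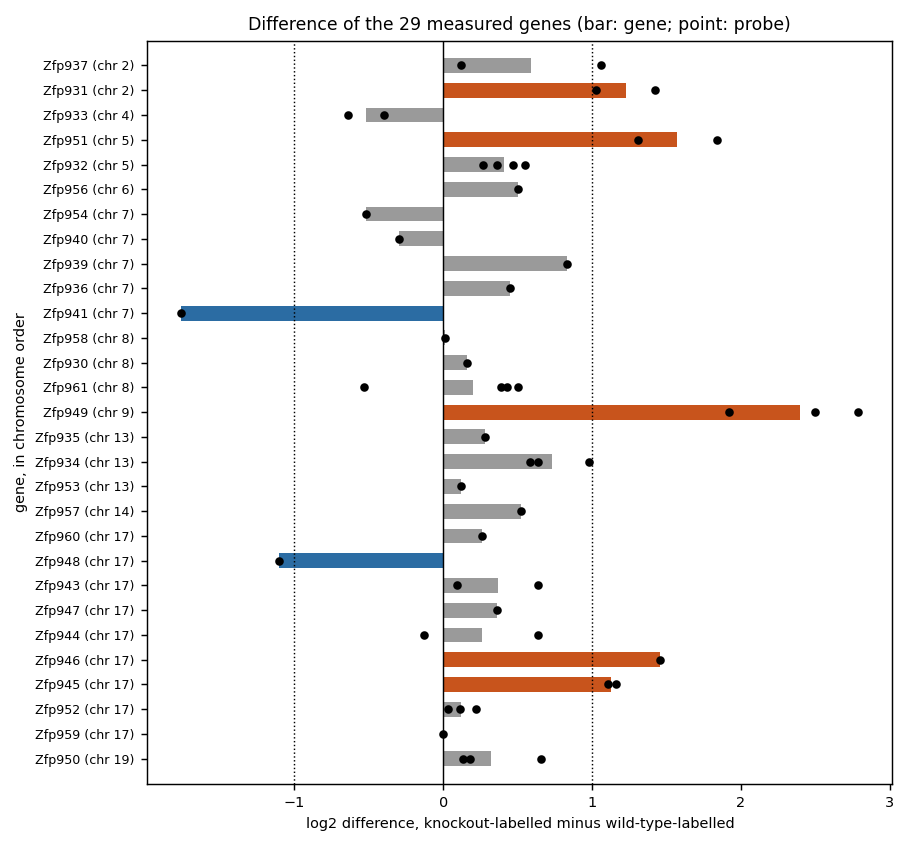
Log2 difference, knockout-labelled minus wild-type-labelled (horizontal axis), of the 29 measured genes in chromosome order; bars are the gene means, orange and blue where at least 2-fold higher or lower, points are single measured probes, and dotted lines mark 2-fold. The bars run from -1.76 for Zfp941 to 2.40 for Zfp949, and 24 of 29 point to the right (8 of 29 with spike-in probes as the scale).

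Chromosome 17 holds 9 of the 32 genes, and 6 of them lie in 1 run of 1273 kb, chr17:21725548-22998961. In order they were Zfp948, Zfp943, Zfp947, Zfp944, Zfp946 and Zfp945, all 6 measured, and their differences reached from -1.10 to 1.46, so genes of 1 cluster lay on both sides. Zfp948, at the start of the run, read 232 ± 23.6 and 102 ± 11.0 with its single probe. It was lower on the knockout-labelled array by 2.15-fold (-1.10), and by less than 2-fold (-0.77) with normexp background correction. Zfp946 read 305 ± 30.8 and 793 ± 79.3, higher on the knockout-labelled array by 2.75-fold (1.46), at the probe that begins ataggagagaaactttacaaatgtagtgaa (chr17:22592530-22592589, plus strand). That probe shares runs with probes of Zfp52, Zfp758 and 2210404O09Rik, the longest of 23 bases. The other Zfp946 probe, less than 1 kb away and with no shared run, read 11.4 and 8.31 and was not well above background on either array. With no filter on dim probes the gene's difference was 0.54, and on the spike-in scale 0.94. Zfp945, at the end of the run, was higher at both probes, at 25.1 ± 4.53 and 51.1 ± 6.33, and at 111 ± 11.8 and 234 ± 23.7. These probes share no run with another gene's probe and gave 1.11 and 1.16. The gene's difference was 1.13 ± 0.04 (SD, 2 probes), or 2.19-fold; it was 0.68 with normexp and 0.61 on the spike-in scale.

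The genes between them differed less. Zfp943 had its finger probe at 82.2 and 121 (0.64) and another at 649 and 652 (0.09), with a mean of 0.37 ± 0.39. Its remaining probe read 5.81 and 3.9 and was not well above background on either array. Zfp947 read 1066 and 1293, a difference of 0.36. Zfp944 had 1 probe on each side of 0, at 185 and 159 (-0.13) and at 26.5 and 39.0 (0.64).

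The run holds other genes too, several of them zinc finger genes. Among 23 other measured features, 5 were at least 2-fold higher, or 21.7%, and 0 were at least 2-fold lower, and their median was 0.39. Of all measured genes 4.80% were higher and 5.04% lower, and of the other numbered Zfp genes 8.08% and 1.54%. The 5 were Gm16386 at 1.37, Zfp229 at 1.15, Zfp760 at 1.09, 2210404O09Rik at 1.07 and Zfp820 at 1.05. Zfp760, Zfp229, Zfp820 and 2210404O09Rik follow one another in the first part of the run, after Zfp948, which differed the other way. Probes of 2210404O09Rik share runs with those of Zfp932, Zfp936, Zfp943 and Zfp946, so these values are not all independent.

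**Figure D4:**
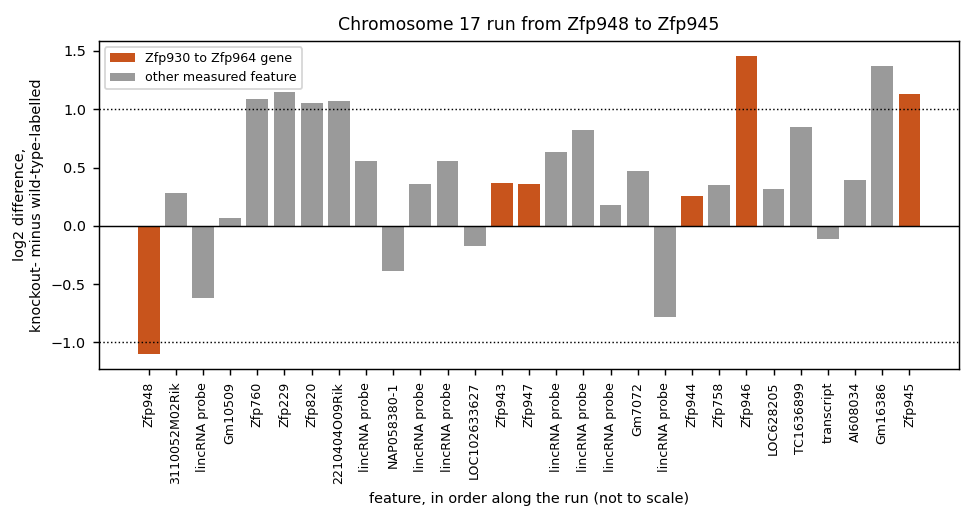
Log2 difference, knockout-labelled minus wild-type-labelled (vertical axis), of each measured feature in order along the chromosome 17 run (horizontal axis, not to scale), orange for Zfp930 to Zfp964 genes and grey for other features; dotted lines mark 2-fold. Zfp948 is the only bar below -1, and 7 bars pass 1, among them Zfp946 and Zfp945.

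Outside the run, Zfp960 read 328 and 371 (0.26). Zfp952 had 3 measured probes, at 5535 and 5334, 26.7 and 29.4, and 159 and 162, all within 0.22 of 0, with a mean of 0.12 ± 0.10. Zfp959 read 131 and 124, a difference of 0.00 after scaling and the one nearest to 0. On chromosome 19, Zfp950 had 3 measured probes, at 42.0 and 43.3, 209 and 311, and 1882 and 2007, with a mean of 0.32 ± 0.29; its remaining probe was not well above background on either array.

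Probes of the same gene mostly lay on the same side. Of the 13 genes with 2 or more measured probes, 11 had all of them on 1 side of 0 and 2, Zfp961 and Zfp944, had them on both sides. Over all 6772 such genes, 2481 (36.6%) had probes on both sides. These counts depend on the scale, since the group as a whole lay above 0. With every difference 0.52 lower on the spike-in scale, Zfp932, Zfp937, Zfp943 and Zfp950 also have probes on both sides, while Zfp961 has all below 0. The share over all genes is not given for that scale, so the comparison does not show closer agreement between probes here. Among the 7 genes past 2-fold, Zfp949, Zfp951, Zfp931 and Zfp945 rest on 2 or more measured probes, and Zfp946, Zfp941 and Zfp948 on 1. Under all 10 alternatives Zfp949 stayed at least 2-fold higher and Zfp941 at least 2-fold lower. Zfp951, Zfp946, Zfp931, Zfp945 and Zfp948 each came under 2-fold in at least 1 of them.

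**Figure D5:**
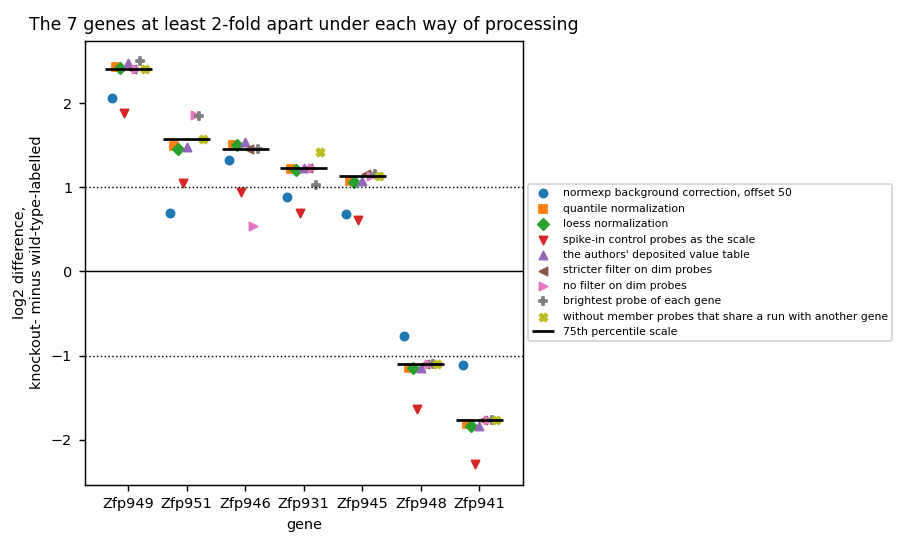
Log2 difference, knockout-labelled minus wild-type-labelled (vertical axis), of the 7 genes past 2-fold; the line is the value on the 75th percentile scale, symbols are other ways of processing the same arrays, and dotted lines mark 2-fold. All symbols of Zfp949 lie at or above 1.88 and all of Zfp941 at or below -1.11, while normexp correction and the spike-in scale bring Zfp931 and Zfp945 under 1.

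The proteins that KRAB zinc finger proteins work with were taken as a list of 33 genes. Of these 32 were measured, with 1 at least 2-fold higher (3.12%) and 0 lower, where 4.80% and 5.04% of all measured genes were. The median was 0.12, between that of the zinc finger genes and that of all genes. On the spike-in scale it was -0.40, and since that scale moves every gene alike, the order of the medians cannot change there. Trim28, the corepressor, was at -0.17, and Setdb1, which methylates histone H3, at -0.24, so neither differed by 2-fold. Fam208a, a part of the HUSH silencing complex, stood at 1.11 ± 1.14 (SD, 2 probes), a value smaller than the spread between its own probes. Next in size were the histone deacetylase Hdac2 at 0.74, the chromatin remodeller Smarcad1 at 0.60 and Zfp809, a zinc finger protein that binds retroviral DNA, at 0.55. Zfp57, which guards imprinted loci, was detected on the wild-type-labelled array only. The least difference this allows (its bound) was -0.20, under 2-fold.

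The start sites were compared for CG content, the feature that marks promoters of broadly used genes. In the RefSeq table of the assembly GRCm38.p6, 29 of the 32 genes had a window of 250 bases before to 50 after the start; Zfp930, Zfp934 and Zfp960 were not matched. The number of CG steps in it, the highest where a gene has several windows, had a median of 9 (3 to 24), against 16 for 246 other numbered Zfp genes and 8 for 27025 genes in all. Among the genes past 2-fold, Zfp931 had 3, Zfp941 had 5, Zfp949 had 6, Zfp945 had 7, Zfp951 had 8, Zfp948 had 10 and Zfp946 had 12. The CG count describes these windows, and its part in the differences was not tested.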

How the data were processed

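Per the submitters' processing notes and the file headers, the authors extracted the intensity of each spot in Agilent Feature Extraction 10.7.1.1. That software subtracted background and detrended the signal; nothing was normalized between arrays at that stage. The authors also deposited log2 values of the same arrays; against the log2 processed signal these gave r = 0.9999 and 0.9997 over 56594 probes, and both columns have a median of 4.97 and the same sorted values within 0.00104. The sources used here do not give the method behind them, and they serve as an alternative.

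Outlier spots were dropped, 102 of the wild-type-labelled array and 105 of the other. Each probe's log2 processed signal was set to the array's 75th percentile over non-control probes (signals of 347 and 327), and a gene was the mean of its probes well above background on both arrays. A gene above background on 1 array alone would get a bound; none of these genes did. Planned for naming with values were genes past 2-fold and those among the 8 greatest or 8 smallest differences or the 4 nearest to 0. So were genes with 2 or more probes or within 1 Mb of another. The remaining measured genes were given with values as well. Of each list at most 4 were named by size, and besides these Krt14, Trim28, Setdb1 and genes not measured on both arrays. P2ry6 was named too, as were features around the genes past 2-fold, neighbours chosen after their values were seen. The genes, lists and threshold were chosen with earlier results of these data known. Runs of 20 or more bases were searched among all probe sequences. Python 3.11.15 with pandas 2.3.3, and R 4.3.3 with limma 3.58.1 for normexp, were used, and the scripts were tested on simulated data. Alternatives were normexp with an offset of 50, quantile, loess and spike-in scaling, the deposited values, a stricter and no filter on dim probes, the brightest probe, symbols updated through RefSeq accessions, and, added after the data were seen, leaving out probes with a shared run. CG steps were counted in RefSeq windows, GRCm38.p6, used with no coordinates.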

Additional observations from a re-analysis of the deposited data

How the results depend on the processing

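The depth of evidence is 1 array per genotype, and signal over background limits the dim genes. With normexp background correction (offset 50), 2 genes were at least 2-fold higher and 1 lower, where 1.86% and 2.91% of all genes were, and P2ry6 stood at 1.10. With spike-in probes as the scale, 2 were higher and 4 lower, the additional lower ones being Zfp933 and Zfp954 at -1.04 each. Among all genes 268 (1.36%) were higher and 3721 (18.8%) lower on that scale. Medians there were -0.20 for these genes, -0.23 for the other numbered Zfp genes and -0.40 for the KRAB partners, and P2ry6 stood at 0.76. With updated symbols the group grew to 47 genes with 42 measured, of which 9 were higher and 2 lower, where 4.82% and 5.04% of all genes were, and 1 more, Zfp979, had a bound of at least 2-fold, as did 22.9% of all genes detected on the knockout-labelled array alone under the array's own names. Over the 10 alternatives the group's median ranged from -0.20 to 0.36. The causes were not tested. No bounds were computed under the stricter and the absent filter, and the slide as a block was not run because both arrays lie on 1 slide. No paired analysis was possible because each genotype has 1 array.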

Other observations

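Symbols on the array are older than those in the RefSeq table of GRCm38.p6. Through probe accessions, 15 further genes on 21 probes carry a symbol of the Zfp900 to Zfp999 range there, under array names such as Gm13154 or Etohi1, while 44 of the 59 probes described above were matched and all 44 kept their symbol. Among them Zfp967, Zfp976, Zfp992 and Zfp995 have probes that share a run of at least 20 bases with probes described above, so these values are not all independent of those. Of the 15, 13 were measured. Of these, 4 were past 2-fold upward on the knockout-labelled array and 0 downward, where 4.80% and 5.04% of all genes were. Their median was 0.53, against -0.06 for all genes. With spike-in probes as the scale 1 of them, Zfp985, is past 2-fold upward and 0 downward, where 1.36% and 18.8% of all genes are. Their median is 0.01 on that scale, against -0.58 for all genes. Zfp985, named Gm13154 on the array, had 1 probe at 23.8 and 165 and another at 314 and 1300 on the wild-type-labelled and the knockout-labelled array, both far higher on the latter, with a difference of 2.51 (5.68-fold). Zfp971, which the array calls Etohi1, was at 1.30, Zfp974 at 1.28 and Zfp995, which the array calls 2210404O09Rik, at 1.07. The values of Zfp971 and Zfp995 are those already given above for Etohi1 near Zfp931 and for 2210404O09Rik in the chromosome 17 run.

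Zfp979, named 2610305D13Rik on the array, was detected on the knockout-labelled array alone. Its probe read 12.1 on the wild-type-labelled array, not well above background, and 387 on the knockout-labelled array, at least 23.2-fold higher against the lowest signal well above background. A further probe of it was not well above background on either array. Zfp982 was not well above background on either array, and Zfp987 was the only one of the 13 below 0, at -0.32. These genes were looked up after the array names had been analysed, and no biological replicate bears on them.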
